A study of Mus musculus with 6 samples.

Results

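The genes described here are 33 genes of fatty acid oxidation and targets of the nuclear receptor PPARA, listed by name, and the open chromatin near their starts in the first segment (S1) of the mouse kidney proximal tubule. Each gene was followed through the peaks whose summit, the position of highest signal, lay within 1 kb of one of its annotated transcription starts (promoter regions) and, apart from these, through the peaks more than 1 kb and at most 50 kb away (distal regions). A promoter region was found for 32 of the 33 genes, of 13795 protein-coding genes with one in the whole series. Hadha and Hadhb share theirs, so there were 31 promoter regions. The distal regions numbered 339, and all 6 peak lists merged into 99359 regions.

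Open chromatin was measured by ATAC-seq, in which a transposase cuts accessible DNA and tags it for sequencing. Each of the 6 libraries was made from 3 tubules dissected by hand from the kidneys of male, wild-type C57BL/6 mice operated on at 7 weeks of age. Tissue was collected 24 h later, following either a sham procedure in 3 libraries (Sham) or unilateral nephrectomy in the other 3 (UNx), in which a surgeon takes out 1 of the kidneys. Both groups had thus undergone an operation. The labels do not say that each library came from another mouse, so the p-values below measure only the spread between these libraries, which may be technical. The study compared how the accessible chromatin of S1 tubules stood after each operation.

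The proximal tubule reabsorbs most of the filtrate and draws the energy for it mainly from fatty acids. These are taken up and bound in the cytosol, activated to acyl-CoA, carried into mitochondria by the carnitine shuttle and shortened there by repeated cycles of dehydrogenation, hydration, dehydrogenation and thiolysis, while very long chains are first shortened in peroxisomes. PPARA binds fatty acids and, paired with RXR, binds direct repeats of a hexamer at many of these genes. Accessibility of a promoter or enhancer is a measure of chromatin and not of transcription, and no RNA values entered the comparisons.

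The lists held 77355 to 100999 peaks, and the authors' −log10 q (how far a peak exceeds the caller's background, after correction) had medians between 12.1 (Sham 2) and 26.5 (UNx 3). The lists hold no read counts, so the depth of the libraries is unknown. Because of these unequal lists each was reduced to its 77355 strongest peaks by the authors' −log10 q, and each peak was given its percentile rank within its own list, close to 100 for its strongest peak. A region missing from the reduced list scored 0. All 8 markers of the S1 segment, among them Slc5a2, Lrp2 and Hnf4a, had a promoter region in every library, with mean percentiles of 78.4 to 81.0 in Sham and 79.0 to 81.8 in UNx. None of 3 immune and none of 4 adipocyte markers had one in any library. Markers of the S2 and S3 segments were lower, at 17.3 to 22.6 in Sham and 7.27 to 14.5 in UNx, and those of the loop and distal tubule stood at 44.4 to 48.7 and 37.9 to 44.2. Of 3 collecting duct markers only Fxyd4 had a promoter region (mean percentile 86.5), and of 3 stromal markers only Col1a1 did (65.1). Both regions were present in all 6 lists. The 3 podocyte markers stood at 21.2 to 32.5 in Sham and 19.0 to 27.5 in UNx. The part that these other cells had in the comparisons below was not tested. In bulk samples, fewer cells of a type and less accessibility per cell cannot be told apart.

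The promoters of the fatty acid genes were open in S1 tubules after either operation. Of the 31 promoter regions, 29 were present in all 6 lists (93.5%, beside 93.6% of coding promoters). The other 2, those of Cd36 and Fgf21, were absent only from UNx 2. The median percentile of the 31 was 89.9, beside 85.8 for 12065 promoter regions of coding genes. Of the 32 genes, 15 had a mean percentile above 90 and 3 had one under 50. The summit lay within 200 bp of the start in 26 genes. Shares over coding promoters were not computed for these counts. The regions of Crat, Pex11a, Etfdh, Fabp3 and Acot4 also have their summit within 1 kb of the start of a coding gene outside the set. These are Ptpa, Wdr93, 4930579G24Rik, Gm10570 and Gm49366, so the ranks of the 5 regions cannot be assigned to 1 gene. The regions had a median width of 1147 bp and a median GC content of 57.2%, beside 1083 bp and 60.6% for coding promoters. Etfdh, whose product passes electrons from the acyl-CoA dehydrogenases to the respiratory chain, had the highest mean percentile, 99.4, above 97.8% of coding promoters. Eci1, an isomerase for unsaturated fatty acids, followed with 99.2, and Acadm, the medium-chain acyl-CoA dehydrogenase, with 98.9. At the other end stood the fasting hormone gene Fgf21 with 33.3, above 8.31% of coding promoters, the fatty acid binding protein gene Fabp1 with 37.7 (above 9.61%) and the fatty acid receptor gene Cd36 with 38.9.

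**Figure D1:**
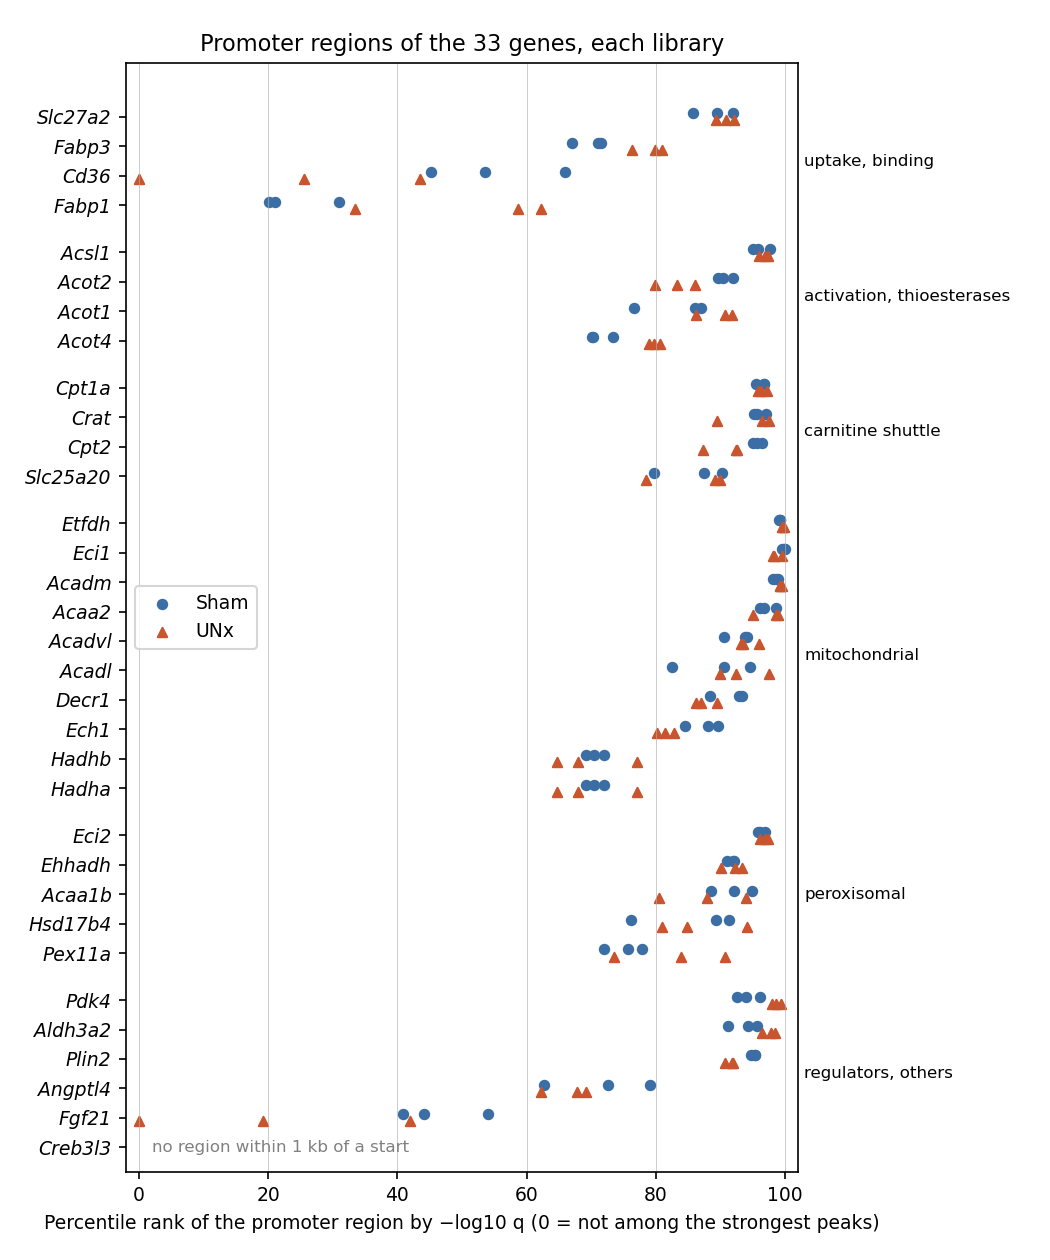
Percentile rank of the promoter region (x axis, 0 to 100, by −log10 q within each list) for each gene (y axis, grouped by step), with 1 point per library, circles for 3 Sham and triangles for 3 UNx. Most promoters sit above 80 in all 6 libraries, while Fabp1, Cd36 and Fgf21 lie far lower and spread most, and Creb3l3 has no region within 1 kb.

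Creb3l3 encodes a liver and gut transcription factor of lipid metabolism. It alone of the 33 genes had no region with its strongest summit within 1 kb of its start in the reduced lists. Peaks dropped from those lists were not considered for Creb3l3. Its nearest regions lay 6172 bp downstream, with a mean percentile of 87.7, and 7085 bp upstream, with 91.7, and both were present in all 6 lists. The downstream one lies in an intron of Creb3l3, and the upstream one in a UTR exon of another gene, Map2k2, with its summit 12 bp from the start of that gene. The threshold of 1 kb decided few of the other values. Just inside it lay the region of Cd36 at −843 bp (mean percentile 38.9), a second region of Ehhadh at −951 bp (30.6) and the region of Fgf21 at −956 bp (33.3). Just outside it lay a second region of Plin2 at −1050 bp (67.2) and a second region of Cpt2 at 1452 bp (71.1).

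The sequences around the summits were searched because PPARA and RXR bind a direct repeat. The 200 bp around each summit were read on both strands for AGGTCANAGGTCA, the repeat of the hexamer AGGTCA with 1 base between. It occurred in 0 member promoters, 0 tested member distal regions and 44 of the 74781 tested regions (0.059%). With the fourth base of each hexamer free (AGGNCANAGGNCA), 1 of the 31 member promoters held it (3.23%), beside 0.224% of coding promoters, and 2 of 266 tested member distal regions (0.752%), beside 1.22% of the distal regions of coding genes. With at most 1 mismatch to the repeat, 2 of 31 member promoters held it (6.45%), beside 0.348% of coding promoters, and 4 of 266 member distal regions (1.50%), beside 1.05% of all tested regions. The single hexamer was in 6 of 31 member promoters (19.4%), beside 7.48% of coding promoters, and in 19.5% of member distal regions, beside 19.4% of all tested regions. The ERR element TCAAGGTCA, which contains the hexamer, was in 0 member promoters and 2 member distal regions.

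The 6 windows with a repeat of at most 1 mismatch are shown in part because they come closest to the repeat that PPARA and RXR bind, each with 1 mismatch. All are given 5′ to 3′ on the plus strand of GRCm38 (RefSeq), with the 13 bases of the repeat in capitals. The Fabp1 window, chr6:71199768-71199826, lies just before its start, and the Acadvl window, chr11:70015340-70015368, lies in its 5′ UTR. The other windows are distal, at chr17:33774396-33774424 in the 3′ UTR of Angptl4 (7426 bp from its start), chr7:28790513-28790613 (Ech1, −34592 bp), chr17:24437077-24437177 (Eci1, 10176 bp) and chr13:34961569-34961669 (Eci2, 32547 bp). The repeat is on the plus strand in the Eci2 window and on the minus strand in the other 5.
Fabp1 promoter: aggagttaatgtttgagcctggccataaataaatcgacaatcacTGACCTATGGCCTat
Acadvl promoter: cgaagtctTGACCACTGACCTcttctctt
Angptl4 distal: atctgttcTGTCCTTTGACCTtttgggtg
Ech1 distal: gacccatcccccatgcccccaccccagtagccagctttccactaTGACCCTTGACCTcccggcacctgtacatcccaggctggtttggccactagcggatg
Eci1 distal: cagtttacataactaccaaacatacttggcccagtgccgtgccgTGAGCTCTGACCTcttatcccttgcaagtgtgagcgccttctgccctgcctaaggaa
Eci2 distal: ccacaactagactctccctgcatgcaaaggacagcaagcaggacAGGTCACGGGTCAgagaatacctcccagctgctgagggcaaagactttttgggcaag
Of these 6 regions, the groups did not overlap in that of Fabp1, where UNx was above, and overlapped in the other 5. A match describes the letters and is not evidence of a bound receptor.

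The promoters were then compared between the operations. limma was fitted to the percentile ranks of all 74781 regions that 3 or more of the lists held, with Benjamini-Hochberg adjustment over all of them. Of the 31 member promoters, 0 passed an adjusted p of 0.05 (smallest 0.130), beside 0.423% of coding promoters. At an unadjusted p under 0.05 there were 8 of 31 (25.8%), beside 13.5%. All 3 UNx values lay outside the range of the 3 Sham values in 12 (38.7%), beside 20.2%. UNx was above in 7, beside 9.43%, and below in 5, beside 10.7%. The median difference (UNx minus Sham) was 0.377 percentile points, beside −0.184 over coding promoters, with 19 regions higher and 12 lower. It was 0.0291 without Sham 2. Ranked by fold enrichment in place of −log10 q, the median was −6.80, beside −1.14 over coding promoters. The fatty acid promoters thus differed in both directions, by amounts that did not pass the test across all regions. The 8 promoters of smallest unadjusted p are given with the others of their role, with limma's adjusted p.

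Among the genes of uptake and binding was Fabp1, the main fatty acid binding protein of liver cytosol. It had percentiles of 20.99, 20.15 and 30.94 in Sham and 58.7, 33.4 and 62.2 in UNx. All 3 UNx libraries stood above all 3 Sham libraries, UNx 2 only just. The difference was 27.4 ± 10.4 percentile points (SE, n = 3 per group; limma adjusted p = 0.168), the largest increase among the 31 promoters in this ranking.

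Cd36, a membrane receptor that takes up long-chain fatty acids, differed the other way. Its strongest promoter region, at −843 bp, had percentiles of 53.5, 45.2 and 66.0 in Sham and 25.5, 0 and 43.5 in UNx. The groups did not overlap, with a difference of −31.9 ± 11.3 percentile points (SE, n = 3 per group; limma adjusted p = 0.145) that was −20.4 without UNx 2. In the complete lists UNx 2 did hold a peak there, and the percentiles were 63.2, 45.2 and 72.9 in Sham and 38.4, 17.5 and 55.5 in UNx. In those lists the groups overlapped, with UNx 3 above Sham 2. A weaker region at −25 bp from another Cd36 start had 21.1, 26.9 and 15.7 in Sham and 0 in each UNx library, and it was in no complete UNx list either. Because that region was in the Sham lists only, passing the filter of 3 lists already required a difference.

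Cd36 is also expressed by endothelial cells, so their markers are given beside it. Of Flt1, Kdr, Pecam1 and Emcn, 3, 2 and 2 had a promoter peak in Sham 1, 2 and 3 and 0 in each UNx library. Their mean percentile was 5.00 to 7.11 in Sham and 0 in UNx. In the complete lists Kdr had a peak in all 6 libraries and Flt1 in 5, while Pecam1 had one in 1 and Emcn in 2, all of them Sham. The part of endothelial cells in the Cd36 difference was not tested.

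**Figure D2:**
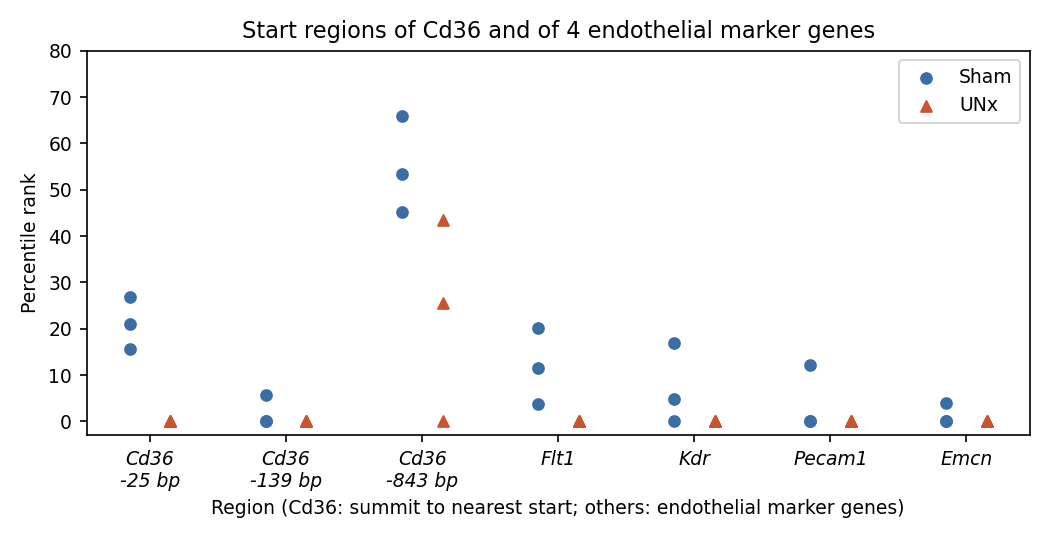
Percentile rank (y axis) of 3 promoter regions of Cd36, named by the distance of the summit from the nearest Cd36 start, and of the promoter regions of 4 endothelial marker genes (x axis), with 1 point per library. Sham points (circles) reach 66.0 at Cd36 and 20.3 at Flt1, and the UNx points (triangles) of the endothelial genes are all at 0.

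Fabp3, a second cytosolic binding protein, had its strongest region at −553 bp. It stood at 67.0, 71.1 and 71.4 in Sham and 81.0, 76.4 and 79.8 in UNx. There UNx was above without overlap (difference 9.22, limma adjusted p = 0.282). A weaker region of Fabp3, with its summit 4 bp from the start, had 30.2, 42.2 and 48.4 in Sham. In UNx it had 42.9, 44.1 and 63.8, so that the groups overlapped (difference 9.98, limma adjusted p = 0.600). The summit of the stronger region is also within 1 kb of the start of another annotated gene, Gm10570. Slc27a2, a transporter and acyl-CoA synthetase for very long chains, overlapped between the groups, with a difference of 1.71. The 4 genes of this step thus had no shared direction.

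Activation joins fatty acids to coenzyme A, and thioesterases undo it. The main promoter of Acsl1, the long-chain acyl-CoA synthetase of oxidative tissues, was at percentiles of 95.1 to 97.6 in all libraries, with a difference of 0.506. A second region of Acsl1, at an alternative start, was weaker, with 54.6, 60.6 and 40.4 in Sham and 66.8, 71.0 and 77.0 in UNx. There the groups did not overlap (difference 19.7, limma adjusted p = 0.140).

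The acyl-CoA thioesterases Acot2, Acot1 and Acot4 lie side by side on chromosome 12, and by −log10 q their differences had opposite signs. Acot2, the mitochondrial enzyme, had 91.9, 89.5 and 90.4 in Sham and 83.2, 86.1 and 79.8 in UNx, with every UNx library below every Sham library. The difference was −7.58 ± 2.60 percentile points (SE, n = 3 per group; limma adjusted p = 0.136). Acot1, the cytosolic enzyme 21.63 kb away, had 86.1, 87.0 and 76.7 in Sham and 90.6, 86.2 and 91.8 in UNx, a difference of 6.29 with overlap. Acot4, a peroxisomal enzyme, had 70.1, 70.3 and 73.4 in Sham and 80.6, 78.9 and 79.7 in UNx, and its groups did not overlap (difference 8.48, limma adjusted p = 0.299). The opposite signs rest on this ranking: by fold enrichment Acot2 was at −19.3, Acot1 at −6.82 and Acot4 at 1.07.

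The cluster continues with 3 thioesterase genes that are not among the 33. All 3 are among the further genes of fatty acid handling counted below. The start regions of Acot3 and Acot5 are counted again among the distal regions, 13735 and 31395 bp from the Acot4 start. The start regions of Acot3, Acot5 and Acot6 were each higher in every UNx library than in every Sham library, with differences of 41.8, 27.1 and 17.8 and limma adjusted p of 0.0880, 0.165 and 0.222. Acot3 had 0, 24.8 and 0 in Sham and 57.8, 29.7 and 62.7 in UNx. With 1 Sham list against 3 UNx lists, its region passed the filter of 3 lists through UNx, which already required a difference. From Acot2 outward, 1 of the 6 start regions was thus lower in UNx, and none passed the adjusted threshold. These genes belong to 1 family, and reads may have been split or lost between similar copies. That could not be checked from peak lists, so their levels are uncertain.

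**Figure D3:**
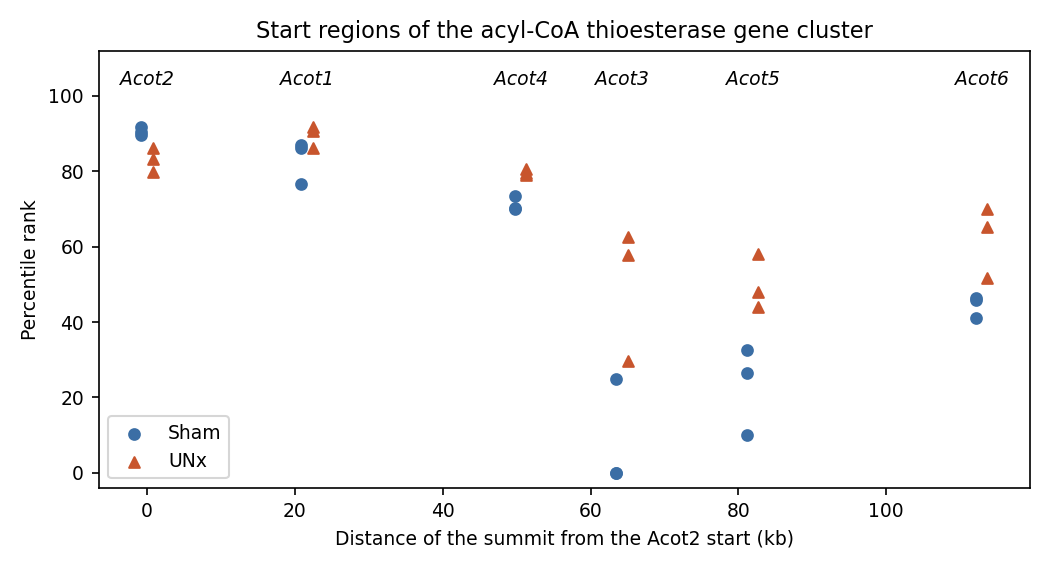
Percentile rank (y axis) of the 6 thioesterase start regions against the distance of the summit from the Acot2 start in kb (x axis), with 1 point per library, circles for Sham and triangles for UNx. The UNx points lie below the Sham points at Acot2, overlap them at Acot1 and lie above them at Acot4, Acot3, Acot5 and Acot6.

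The carnitine shuttle moves activated fatty acids into mitochondria. Cpt1a, the rate-limiting enzyme at the outer membrane, had a main promoter at percentiles of 95.5 to 97.1, with a difference of 0.0384. A second Cpt1a region 811 bp inside the gene, on the other hand, had 25.5, 55.3 and 55.4 in Sham and 69.7, 75.5 and 72.2 in UNx, without overlap (difference 27.1, limma adjusted p = 0.0952). Slc25a20, the translocase, differed by 0.0108, and Crat, which makes acetylcarnitine, by −1.47, both with overlap.

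Cpt2, which turns acylcarnitine back into acyl-CoA at the inner membrane, showed lower ranks at its promoter in UNx. Its percentiles were 95.7, 96.5 and 95.02 in Sham and 92.6, 87.3 and 92.3 in UNx. The groups did not overlap, and the difference was −4.98 ± 1.87 percentile points (SE, n = 3 per group; limma adjusted p = 0.166). The next region inside the gene, at 1452 bp, differed the other way, with 66.6, 65.4 and 59.1 in Sham and 78.7, 86.5 and 70.5 in UNx (difference 14.9, limma adjusted p = 0.156).

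The mitochondrial cycle held the 3 strongest promoters, those of Etfdh, Eci1 and Acadm, and ranks so near 100 leave little room for a difference. Over its 9 regions the median difference was 0.377, from −5.90 to 4.11, and 0 had an unadjusted p under 0.05. Ranked by fold enrichment, however, Eci1 was at −15.2, Decr1 at −15.9, Ech1 at −18.4 and the shared region of Hadha and Hadhb at −10.4 (limma adjusted p = 0.163, 0.247, 0.388 and 0.571). Acadm had 98.9, 98.2 and 98.6 in Sham and 99.6, 99.3 and 99.2 in UNx, and Etfdh had 99.3, 99.1 and 99.2 in Sham and 99.8, 99.6 and 99.6 in UNx. In both, the groups did not overlap, at differences under 1 percentile point. Neither direction held under every alternative: with GC-corrected ranks Acadm was at −0.276 and Etfdh at −0.835, and by fold enrichment Etfdh was at −1.13. Ech1, an isomerase for dienoyl-CoA, was the one gene of the step whose UNx values were all lower, with 84.4, 89.6 and 88.1 in Sham and 82.8, 81.4 and 80.2 in UNx (difference −5.90, limma adjusted p = 0.286). A second Ech1 region, at 474 bp, was weaker and overlapped between the groups (difference −10.5, limma adjusted p = 0.680). Acadvl and Acadl, the very-long-chain and long-chain dehydrogenases, differed by 1.43 and 4.11 with overlap. Acaa2, the thiolase, differed by 0.377, Decr1, the dienoyl-CoA reductase, by −3.97, and Eci1 by −1.08, all with overlap.

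Hadha and Hadhb encode the 2 subunits of the trifunctional protein and face each other across 1 shared region, chr5:30154493-30155947. It was the weakest promoter of the mitochondrial step, with percentiles of 70.5, 69.1 and 72.0 in Sham and 64.8, 68.0 and 77.1 in UNx. The difference was −0.596, smaller than the spread of the UNx libraries. A second region of Eci1, 624 bp inside the gene, was absent or nearly so in Sham (0, 0 and 2.36) and had 30.8, 14.5 and 50.8 in UNx (difference 31.2, limma adjusted p = 0.131). Being in 1 Sham list and 3 UNx lists, it passed the filter of 3 lists through UNx, which already required a difference.

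None of the 5 peroxisomal promoters was separated between the groups. Ehhadh, the bifunctional enzyme and a classic PPARA target, had percentiles of 90.1 to 93.4 with a difference of 0.217. Its second region, at −951 bp, was weaker and overlapped as well (difference −10.2, limma adjusted p = 0.681). Hsd17b4, the second multifunctional enzyme, differed by 0.9997, and Eci2, an isomerase, by 0.550. Pex11a, which acts in peroxisome division, differed by 7.52, from 72.0 to 77.8 in Sham and 73.5 to 90.7 in UNx. The thiolase Acaa1b differed by −4.42, from 88.6 to 94.9 in Sham and 80.5 to 93.9 in UNx.

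Among the regulators and other targets, Pdk4 had the smallest p of all 31 promoters. Its product, a kinase that switches off pyruvate dehydrogenase, spares glucose when fatty acids are burned. The region chr6:5495880-5497131 had percentiles of 94.0, 96.2 and 92.6 in Sham and 98.6, 99.4 and 98.0 in UNx, and every UNx library stood above every Sham library. The difference was 4.39 ± 1.48 percentile points (SE, n = 3 per group; limma adjusted p = 0.130). It was past the threshold with normal scores of the ranks (adjusted p = 0.0399). It turned to −2.05 when peaks were ranked by fold enrichment, where the authors' values were 12.9, 11.8 and 12.3 in Sham and 12.7, 13.1 and 11.8 in UNx. The 201 bases centred on the summit of the region, chr6:5496322-5496522, are printed because it had the smallest p among the main promoter regions of the genes. A CCAAT box is in capitals (plus strand, GRCm38). CCAAT, on either strand, was in 29.0% of member and 29.9% of coding promoters.
Pdk4 promoter: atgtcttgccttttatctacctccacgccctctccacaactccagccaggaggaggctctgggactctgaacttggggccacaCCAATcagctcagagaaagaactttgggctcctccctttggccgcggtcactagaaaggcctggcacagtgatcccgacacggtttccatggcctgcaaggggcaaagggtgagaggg

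Aldh3a2, which oxidises fatty aldehydes, had 95.6, 91.2 and 94.2 in Sham and 97.8, 98.5 and 96.5 in UNx. Its groups did not overlap, with UNx above by 3.91 ± 1.59 percentile points (SE, n = 3 per group; limma adjusted p = 0.199). Plin2, the coat protein of lipid droplets, had 94.8, 95.4 and 95.4 in Sham and 92.0, 90.7 and 91.7 in UNx, with UNx below by 3.71 ± 1.68 (SE, n = 3 per group; limma adjusted p = 0.245). With regions joined only at a reciprocal overlap of 50%, another interval took the place of the Plin2 promoter and the difference was 59.9.

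Fgf21 had 40.9, 54.0 and 44.1 in Sham and 41.9, 0 and 19.2 in UNx. The groups overlapped through UNx 1, and the difference was −25.9 ± 11.5 percentile points (SE, n = 3 per group; limma adjusted p = 0.234), or −15.8 without UNx 2. In its complete list UNx 2 held a peak there at percentile 5.14. Angptl4, a secreted inhibitor of lipoprotein lipase and a classic PPARA target, had 72.7, 79.1 and 62.6 in Sham and 69.2, 62.3 and 67.8 in UNx, which overlapped. PPARA targets of this step therefore lay on both sides, with Pdk4 and Aldh3a2 above, Plin2 below and Angptl4 overlapping.

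**Figure D4:**
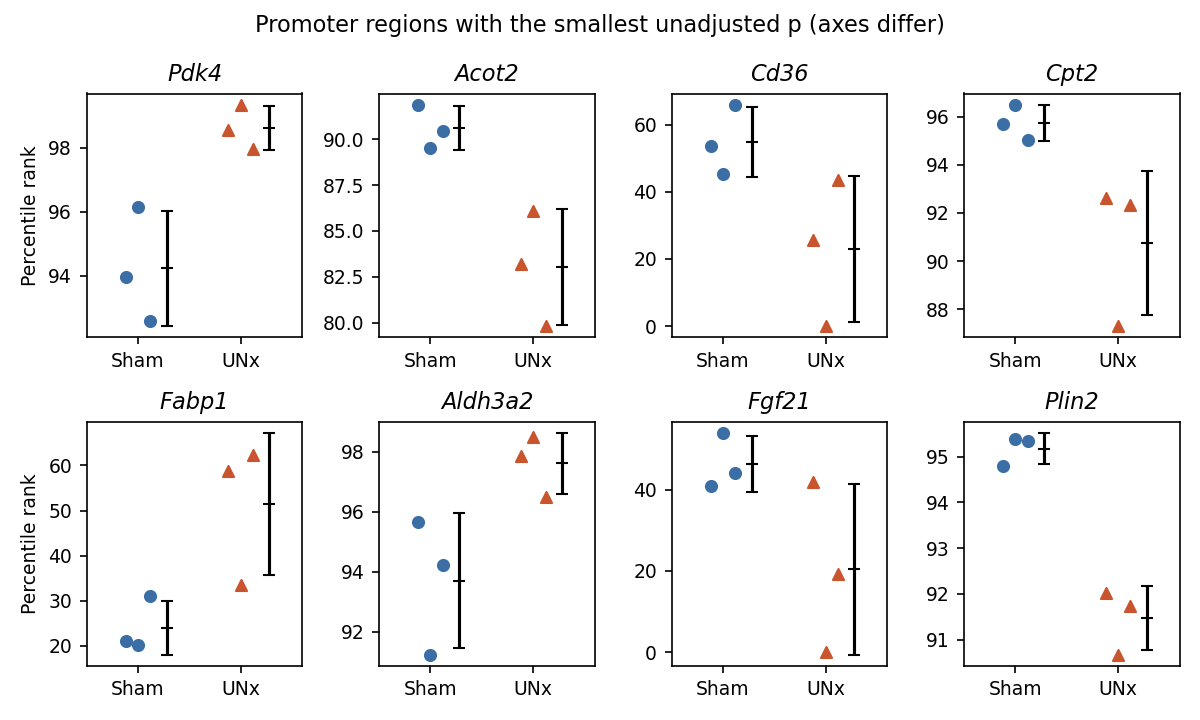
Percentile rank (y axis, a different range in each panel that does not start at 0) of the 8 promoter regions with the smallest unadjusted limma p, with 1 point per library, circles for Sham and triangles for UNx, and the mean with SD over 3 libraries. Pdk4, Fabp1 and Aldh3a2 are higher in UNx, Acot2, Cd36, Cpt2 and Plin2 are lower, and the groups of Fgf21 overlap.

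By step, the median promoter difference was 5.47 for uptake (4 regions), 3.3997 for activation (4), −0.729 for the shuttle (4), 0.377 for mitochondrial oxidation (9), 0.550 for peroxisomal oxidation (5) and −3.71 for the regulators and others (5). UNx was above without overlap in 2, 1, 0, 2, 0 and 2 of them and below in 1, 1, 1, 1, 0 and 1, beside 9.43% above and 10.7% below over coding promoters. Apart from the peroxisomal step, which had 0, each step held at least 1 region below. No step was tested as a set.

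Ketogenesis is represented by no gene of the 33, so 2 of its genes are given beside them. Bdh1, which interconverts the ketone bodies acetoacetate and hydroxybutyrate, had a promoter with percentiles of 78.6, 68.0 and 67.7 in Sham and 72.3, 74.6 and 77.6 in UNx, a difference of 3.41 with overlap (limma adjusted p = 0.758). Acat1, the mitochondrial acetoacetyl-CoA thiolase, had 88.4, 93.6 and 91.8 in Sham and 92.9, 89.4 and 91.7 in UNx. Its difference was 0.071, within the spread of either group (limma adjusted p = 0.991).

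Of 39 further genes of fatty acid handling, 35 had a promoter region and 0 passed the adjusted threshold, with 10 at an unadjusted p under 0.05 (28.6%, beside 13.5% of coding promoters). UNx was above without overlap in 9 (25.7%, beside 9.43%) and below in 3 (8.57%, beside 10.7%). The median difference of these 35 was 2.08. Ppara itself was one of the 3 that were lower, with 85.8, 86.0 and 84.2 in Sham and 79.7, 73.3 and 73.4 in UNx (difference −9.88, limma adjusted p = 0.160). Ppargc1a, a coactivator of PPARA, was higher, with 71.6, 61.9 and 62.4 in Sham and 81.0, 73.5 and 80.0 in UNx (difference 12.9, limma adjusted p = 0.189). No region was found for Acsl6, Cpt1b, Fabp4 and Slc27a5, which are genes best known from brain, muscle, fat and liver. Ppara and Ppargc1a were singled out after their values were seen.

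The number of peaks around the 33 genes did not separate the operations. Within 50 kb of their starts the equally long lists held 317, 324 and 309 peaks in Sham and 323, 328 and 345 in UNx. The means were 317 ± 7.51 and 332 ± 11.5 (SD, n = 3 each), a difference of 15.3 (exact permutation test, two-sided, p = 0.2, where the smallest possible is 0.1). Within 1 kb there were 43, 41 and 45 peaks in Sham and 41, 41 and 42 in UNx (exact permutation test, two-sided, p = 0.4).

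The distal regions were weaker and more variable than the promoters. Of the 339, 266 were present in at least 3 lists and were tested, and 73 were in 1 or 2 lists and were not. The median percentile of the tested regions was 52.5, beside 42.5 for 42346 tested regions at 1 to 50 kb from a coding start. Of the 266, 196 were in all 6 lists, 124 lay in introns, 98 between genes and 44 in exons. Only 54 lay inside the fatty acid gene itself and in 91 the nearest coding start was that of the fatty acid gene, so that distance alone does not assign most of them to it.

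Of the tested distal regions 2 passed the adjusted threshold (0.752%), beside 0.845% of the distal regions of coding genes. Both were higher in UNx, beside 0.515%. At an unadjusted p under 0.05 there were 44 (16.5%), beside 19.5%. The groups did not overlap in 64 (24.1%), beside 24.3%, with UNx above in 41 (15.4%), beside 12.7%, and below in 23 (8.65%), beside 11.5%. The median difference was 0.780, beside 0.226, with 142 regions higher and 124 lower. It was 2.09 without UNx 2, 1.299 without UNx 1 and 0.513 without UNx 3. All of these shares lay close to those of other coding genes.

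The first of the 2 regions rose in UNx from below the reduced lists of all Sham libraries. It lies in an intron of Hadhb, 17000 bp from the start, at chr5:30172002-30172784. Its percentiles were 0, 0 and 0 in Sham and 45.3, 56.6 and 53.1 in UNx (difference 51.7, limma adjusted p = 0.0358). Present only in UNx lists, it could pass the filter of 3 lists only by differing. Sham 3 held a peak there in its complete list, at percentile 6.66, and Sham 1 and Sham 2 held none.

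The second lies in an intron of Cpt2, 2000 bp from the start, at chr4:107921296-107921692. It rose from 7.29, 0 and 11.6 in Sham to 60.7, 61.2 and 45.0 in UNx (difference 49.3, limma adjusted p = 0.0391). Neither rise held when any 1 of the 6 libraries was left out, with adjusted p of 0.0710 to 0.136 at Hadhb and 0.0838 to 0.158 at Cpt2, or with ranks corrected for GC content (0.0776 and 0.0779). In these fits the differences were 46.2 or more percentile points, but by fold enrichment that at Cpt2 was 20.4 (adjusted p = 0.303) and that at Hadhb 53.0 (adjusted p = 0.120). The promoter of Cpt2 stood lower in UNx in the same libraries, as given above.

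The 201 bases centred on the summits of both regions are printed because these regions alone passed the threshold. They are given on the plus strand of GRCm38, with each hexamer AGGTCA (either strand) in capitals. The windows are chr5:30172172-30172372 and chr4:107921460-107921660. The Hadhb window holds the hexamer in 2 places and the Cpt2 window in 1, and neither holds the direct repeat.
Hadhb distal: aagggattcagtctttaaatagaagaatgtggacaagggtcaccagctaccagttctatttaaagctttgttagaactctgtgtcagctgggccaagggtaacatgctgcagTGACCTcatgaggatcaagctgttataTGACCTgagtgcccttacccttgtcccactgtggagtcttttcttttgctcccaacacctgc
Cpt2 distal: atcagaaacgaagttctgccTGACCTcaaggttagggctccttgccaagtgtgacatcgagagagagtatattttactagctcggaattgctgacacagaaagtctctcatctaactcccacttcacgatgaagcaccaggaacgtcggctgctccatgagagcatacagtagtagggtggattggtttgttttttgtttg

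**Figure D5:**
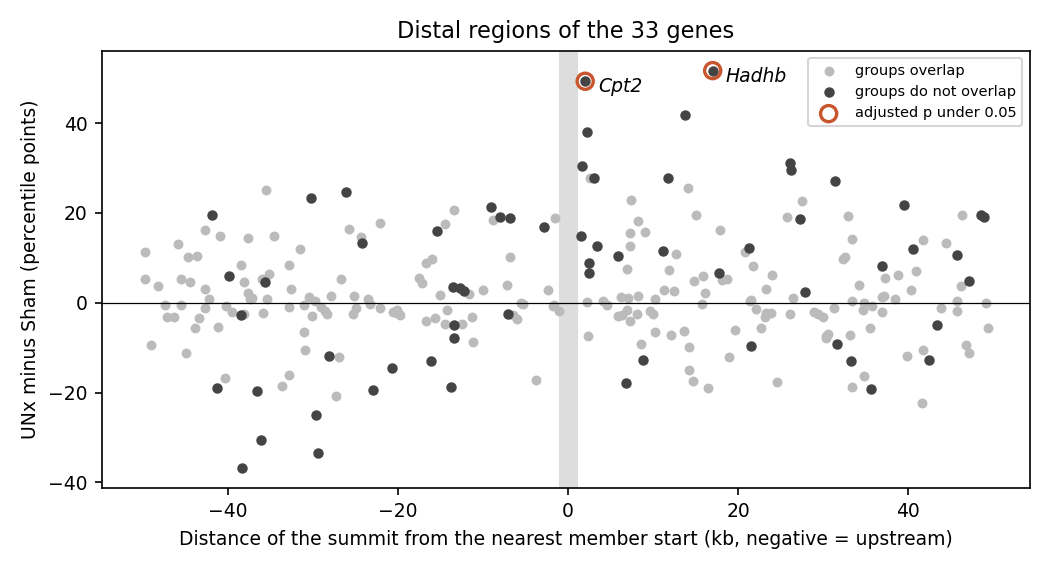
Difference in mean percentile (y axis, UNx minus Sham) of the 266 tested distal regions against the distance of the summit from the nearest start of one of the 33 genes in kb (x axis), with 1 point per region. The 64 dark points are regions whose groups do not overlap, and the ringed points in introns of Hadhb (51.7) and Cpt2 (49.3) passed the adjusted threshold; the grey band marks the promoter window.

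By step, the median distal difference was 0.730 for uptake (35 regions), 1.94 for activation (30), 2.13 for the shuttle (35), −0.0487 for mitochondrial oxidation (73), 1.54 for peroxisomal oxidation (46) and −1.11 for the regulators and others (47). UNx was above without overlap in 5, 3, 7, 13, 6 and 7 and below in 5, 0, 3, 6, 2 and 7. The regions next in order of p did not pass the threshold and were singled out after their values were seen. One lay at −30201 bp from the start of Creb3l3 and 7196 bp from the nearer start of Zbtb7a. It had 60.8, 55.5 and 64.9 in Sham and 85.8, 73.9 and 91.7 in UNx (difference 23.4, limma adjusted p = 0.0520). Another lay at −36104 bp from the start of Etfdh, in an intron of Rxfp1. It had 78.8, 68.3 and 75.7 in Sham and 29.3, 54.4 and 47.2 in UNx (difference −30.6, limma adjusted p = 0.0576). Around Acaa1b, 4 of 11 tested regions were above in UNx and 0 below, with a median difference of 10.2, while around Aldh3a2 2 of 5 were below and 0 above, with −18.6. Over the distal regions of coding genes 12.7% were above and 11.5% below, and these 2 genes were picked for their counts.

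In 16 of the 32 genes the strongest distal region ranked above the promoter. In 6 of these it was the promoter of another coding gene, as at Angptl4, where the start of Rab11b had a mean percentile of 99.6 beside 68.9. In the other 10 it was not. Cd36 had a region at −39942 bp, 33860 bp from the nearer start of Gnat3, with a mean percentile of 92.3, beside 38.9 at its promoter. That region had 93.9, 86.9 and 87.3 in Sham and 95.23, 94.98 and 95.39 in UNx, so it was above in UNx without overlap (difference 5.85, limma adjusted p = 0.146) while the promoter was below. Pex11a had a region 8255 bp downstream of its start at 97.7, beside 78.9, and this region lay 1922 bp from the nearer start of Plin1. Fgf21 had one inside the neighbouring gene Bcat2 at 96.4, beside 33.3. Acaa1b had one in Slc22a14 at 96.3, beside 89.7, with 94.7, 92.6 and 94.6 in Sham and 97.4, 99.4 and 99.1 in UNx (difference 4.64, limma adjusted p = 0.111).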

How the data were processed

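ATAC-seq peak lists of 3 Sham and 3 UNx libraries were analysed. Per the submitters' processing notes the tools were cutadapt 3.4, Bowtie, SAMtools, Picard and MACS2 2.2.7.1 with build mm10; their settings and the filter on the lists are not given in the sources used here. Each deposited list is in narrowPeak format and covers 1 library, with no pooling. The authors deposited for each summit a fold enrichment (a ratio), a −log10 p, a −log10 q and a display score, and these values were used only to rank peaks within a list.

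Distinct intervals on chromosomes 1 to 19, X and Y were kept with their strongest summit. Lists were reduced to 77355 peaks, and intervals overlapping by at least 1 bp were merged. Starts came from GENCODE M21 (GRCm38, basic set). A gene's promoter region was that of highest mean percentile within 1 kb. Percentile ranks of regions in at least 3 lists were tested with limma 3.58.1 in R 4.3.3 (eBayes with trend and robust, adjusted by Benjamini-Hochberg over all regions, two-sided, threshold 0.05). Peak numbers were compared by exact permutation. On simulated ranks of 74781 regions for UNx with Sham, limma made 0 calls with no change. It recovered 47% of 200 changed regions at a shift of 2 normal-score units (1 false call) and 61.5% at a shift of 4. The simulated ranks were continuous and held no absent peaks. These rates therefore do not carry over to regions missing from some lists, such as the distal regions called at Hadhb and Cpt2.

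The genes and lists were chosen with earlier results of these data known. Some genes of the lists are not reported here. Values in every library were given for the 8 promoters of smallest unadjusted p, any promoter called, absent from a list or not found, the highest and lowest, and any distal region called; further ones were added after their values were seen. Alternatives were other list lengths, fold enrichment as the rank, only peaks with −log10 q of 5 or more, reciprocal overlap, normal scores, GC correction, other filters, variance models and windows, the replicate number as a block, and leaving out each library. Depth is unknown, so no interval that needs it is given.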

Additional observations from a re-analysis of the deposited data

How the results depend on the processing

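No promoter passed the adjusted threshold under any alternative except normal scores, where 1 did (Pdk4). The number of distal regions past it, 2 as reported, was 0 with the 20000 strongest peaks, with all deposited peaks, by fold enrichment, with GC-corrected ranks and without the filter of 3 lists, and 0 to 0 when 1 library was left out. It was 1 with a reciprocal overlap of 50% and with a distal window of 10 kb, and 7 with normal scores. Shares of regions called among other coding genes were not computed under the alternatives. Lists of 20000 peaks could hold neither region, as their best ranks were 33560 (Hadhb) and 30053 (Cpt2). The 10 kb window leaves out the Hadhb region, 17000 bp from the start, by definition. The loss of these regions under those settings was therefore fixed in advance. The labels do not say that the replicate number pairs libraries. Deviations from the group means correlated at 0.00819, −0.100 and −0.0496 between same-numbered libraries and at −0.078 to 0.105 between the others. Such values cannot settle whether libraries were paired. With the replicate number as a block 0 distal regions were called (limma adjusted p 0.0703 at Hadhb and 0.0768 at Cpt2). With the GC correction added to the block it was likewise 0, and 0 promoters were called.

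The median promoter difference was 1.87 with the 20000 strongest peaks and −6.80 by fold enrichment, and 0.0291 to 0.420 with 1 library left out. The median distal difference was 2.93 with all deposited peaks, −1.53 with the 20000 strongest, −1.87 by fold enrichment and 2.14 within 10 kb, and 0.513 to 2.09 with 1 library left out. Distal regions whose groups did not overlap numbered 17 of 74 with the 20000 strongest peaks, 16 of 52 within 10 kb, and 80 to 100 with 1 library left out, where fewer libraries make separation more frequent. The matching shares over the distal regions of coding genes were not computed, so these counts cannot be read as high or low. Of the 32 genes with a promoter, the difference took the other sign in 12 by fold enrichment (Pdk4 −2.05, Acot1 −6.82, Slc27a2 −5.19, Acsl1 −4.23, Cpt1a −12.0, Ehhadh −10.2), in 8 with GC-corrected ranks, in 3 at a reciprocal overlap of 50% (Plin2 59.9, Hadha and Hadhb 22.4), in 1 with a promoter window of 2.5 kb (Angptl4 6.59), and in 18 under at least 1 alternative. At that overlap Crat was at −63.4. The difference in peak numbers stayed positive, from 7 within 10 kb to 32 with all deposited peaks, and 8.83 to 19.8 with 1 library left out. Except where an alternative itself tests fewer regions or libraries, the cause was not tested. The unknown depth limits every rank.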
